A study of Sus scrofa with 12 samples.

Results

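The average difference between Si-CCNB2 and control embryos was taken over all 12 SMART-seq libraries of the series, 6 of each arm. The contrast was the mean of the groups si-2c and si-4c minus the mean of the groups con-2c and con-4c on the log2 scale, with 3 libraries in each of the 4 groups, and every gene was read in it. The embryos were porcine (Sus scrofa) and made by in vitro fertilisation, and SMART-seq copies polyadenylated RNA of a few cells into full-length cDNA that is amplified before sequencing. The si arm received si-CCNB2, small interfering RNA that targets cyclin B2 (CCNB2) mRNA, and the treatment label of the other arm is blank control. No genetic modification is given for any group, and no agent is given that both arms share.

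In the study's methods the controls appear both as normal embryos and as an Si-CCNB2 NC group. The microinjection methods list a negative control beside the siRNAs, without naming these libraries. With blank control as the label, it was not clear that the controls were injected, and the injection itself cannot be told apart from the siRNA. Each library was a pool of embryos, and no source says for these libraries that replicates came from separate cultures, although the study speaks in general of independent experiments. The p-values measure the spread between these pools, which may be technical. Title and tissue label name different stages in all 12 libraries, since those titled 2c are labelled as 4-cell embryos and those titled 4c as 2-cell embryos. The group names below follow the titles. An average over both titles gives the same value whichever label is right, and also if the stage is exchanged in only 1 arm.

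Cyclin B2 is a B-type cyclin that activates the kinase CDK1 at entry into mitosis. The first cleavages of a mammalian embryo run on mRNA stored in the oocyte, much of which is cleared while the embryo's own genome is switched on, and in the pig the main wave of this activation falls in the early cleavage stages. The average keeps those differences that point the same way, or are unequal in size, under the titles, while differences that are equal and opposite cancel in it.

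The study lists 2 siRNAs against CCNB2, and which of them was injected into the embryos of these libraries is not given in the sources used here. They are shown because they are the agents designed against the target gene. The sense strands are printed with the 11 bases that Si-CCNB2-2 shares with the study's own forward CCNB2 primer in capitals, and the guide strands are their reverse complements with the seed, bases 2 to 8, in capitals.
Si-CCNB2-1 sense: gcagguccacuccaaguuu
Si-CCNB2-1 guide: aAACUUGGaguggaccugc
Si-CCNB2-2 sense: GCUUAUACCAGuucccaaa
Si-CCNB2-2 guide: uUUGGGAAcugguauaagc
The seeds of the guides differ. No transcript sequences were searched for matches to them here.

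Library totals were between 27785233 and 39510908 counts in the control arm and between 33270517 and 38649571 in the si arm. The con-4c libraries had the lowest totals, 27785233 to 28771777. Genes detected followed the groups, with 21181 to 21647 in con-4c and 22105 to 23279 in si-2c. There were 18034 to 18819 in con-2c and 18083 to 18231 in si-4c. The part of these differences in the results was not tested. Oocyte markers were abundant in both arms, the summed level of OOEP, ZP2, ZP3, ZP4, BMP15 and GDF9 being 2489 to 4402 CPM (TMM-scaled counts in a library of 1000000) in control and 2740 to 3804 CPM in si libraries. A short set of 11 measured markers of cumulus and granulosa cells was summed too. It gave 9.71 to 13.6 CPM in control and 10.5 to 15.1 CPM in si libraries, most of it GREM1. HAS2, CYP11A1 and FOXL2 were at 0 throughout the si arm, but reached at most 0.132 CPM in control. LHCGR was at 0 throughout the control arm and reached 0.429 CPM in si libraries. The highest value lay in the si arm for GREM1, PTX3, TNFAIP6 and STAR. It lay in the control arm for PTGS2, FSHR and CYP19A1. The full list, with 17 genes in the table, summed to 302 to 379 CPM in con-2c, 183 to 209 CPM in si-2c, 189 to 200.4 CPM in con-4c and 302 to 314 CPM in si-4c, nearly all of it VCAN, a matrix proteoglycan with 177 to 334 CPM as group means. These sums moved with the groups, and their part in the results was not tested. Of a short set of sperm markers, 2 were in the table and summed to at most 1.16 CPM, but the full list with 11 genes in the table summed to 58.6 to 90.2 CPM, most of it LDHC and ZPBP2. Blood markers summed to at most 4.29 CPM. None of the 10 cumulus, 6 sperm and 4 blood markers tested passed on adjusted p.

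CCNB2 itself (ENSSSCG00000004588, chromosome 1, 112907047 to 112942218 in Sscrofa11.1) was the check on the labels. Its lowest, median and highest values were 429, 474 and 510 CPM in the 6 control libraries and 17.8, 34.6 and 46.8 CPM in the 6 si libraries. The arms were far apart. In pooled embryos fewer cells and less RNA per cell cannot be told apart, for this gene or any other. The average log2 fold change was -3.92 (SE 0.10, edgeR adjusted p 3.28e-13), which leaves 6.62% of the control level. The genes on either side of it on the chromosome, MYO1E and RNF111, had average log2 fold changes of -0.15 (edgeR adjusted p 0.572) and -0.04 (adjusted p 0.792).

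Beyond CCNB2, the average was dominated by genes with lower levels in si libraries. A call required an edgeR adjusted p below 0.05 and a log2 fold change of 1 or more in either direction. Of 17995 genes tested, 126 were called lower (0.700%) and 9 higher (0.05%). On adjusted p alone, 655 genes passed as lower (3.64%) and 244 as higher (1.36%), and 1882 and 1284 genes had an unadjusted p below 0.05. The median over all genes tested was -0.01. The excess of lower genes among small differences depended on the scaling of the libraries: with plain library totals in place of TMM factors, 405 genes passed as lower and 440 as higher, whereas the called genes were still mostly lower (107 lower, 11 higher). The counts also rest on the model having a mean for each of the 4 groups: with 2 arms and no term for the title, CCNB2 was the only called gene, and 3 genes passed on adjusted p.

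**Figure D1:**
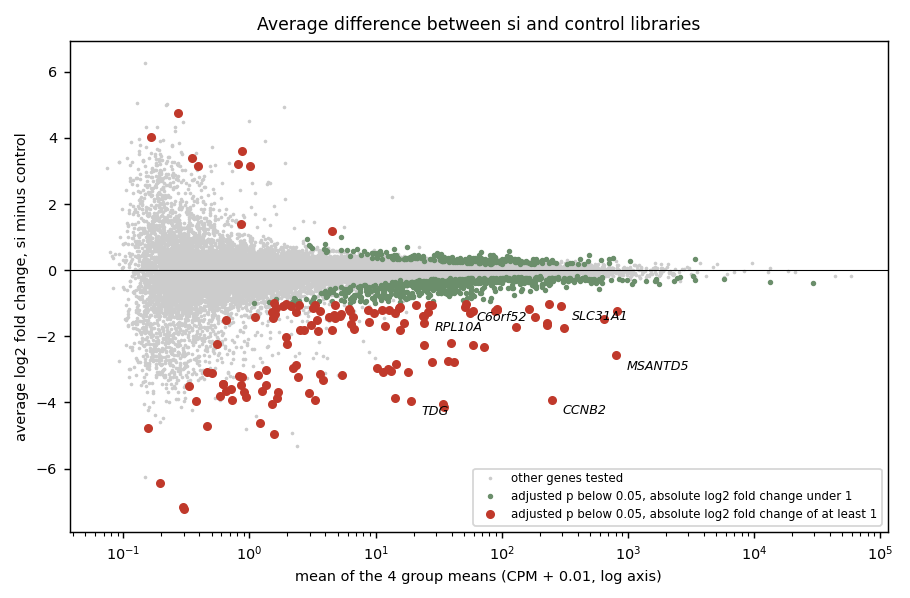
Average log2 fold change of si minus control (vertical axis) against the mean of the 4 group means (CPM + 0.01, log axis), with 1 point for each of the 17995 genes tested. Called genes (red) lie mostly below 0, 126 against 9 above, and the 9 higher ones are at the low end of the level axis.

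Genes that were high in the libraries titled con-4c made up nearly all of the called lower genes. Of the 126, 124 had their highest mean in con-4c and 119 their lowest in si-4c, and 46 had no count at all in the 3 si-4c libraries. The median level of the 126 genes was 13.2 CPM in con-4c, 5.56 CPM in si-2c, 0.524 CPM in con-2c and 0.0929 CPM in si-4c. A symbol was given for 61 of them and 65 had only an identifier. The difference between si and control had opposite signs under the titles in most of them: 93 of 126 passed as higher in si-2c against con-2c and as lower in si-4c against con-4c at an edgeR adjusted p below 0.05. The difference between the titles was itself called in 118 of the 126. In 4 of the 126 genes both titles passed as lower. With the stage exchanged in 1 arm, so that each si group is set against the control group of the other title, 30 of the 126 passed as lower in both comparisons. The median average log2 fold change of the 126 was -1.80, or -1.58 when groups without counts were set to 3 counts over the group. When the arithmetic means of the arms were compared instead, all 126 kept their direction and 77 kept a difference of at least 1, with a median of -1.12.

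MSANTD5 and SLC31A1 had the smallest p-values after CCNB2 among called genes with a symbol. MSANTD5, a gene with a DNA-binding domain of the Myb/SANT type, had 2165, 2522 and 2359.6 CPM in the libraries of con-4c and 775, 952 and 866 CPM in those of si-2c. At the low end were con-2c with 10.6, 13.3 and 8.02 CPM and si-4c with 0.900, 1.01 and 0.538 CPM. The order of the groups was con-4c, si-2c, con-2c and si-4c with no overlap between them, so the lower of the si groups lay below the lower of the control groups and the higher below the higher. Its average log2 fold change was -2.57 (SE 0.13, edgeR adjusted p 5.48e-09). SLC31A1, the high-affinity copper importer of the plasma membrane (chromosome 1, 253868389 to 253893135), had 804, 869 and 828 CPM in con-4c and 292, 311 and 314 CPM in si-2c, followed by 25.2, 33.0 and 27.5 CPM in con-2c and 18.3, 18.2 and 16.5 CPM in si-4c. The groups stood in the same order, and the average was -1.07 (SE 0.07, edgeR adjusted p 7.25e-08).

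The same order of groups was seen in TDG, TFAM and HIST1H2BD. TDG, a thymine DNA glycosylase that starts base excision repair and removes oxidised methylcytosine, had 53.5 ± 1.73 CPM (SD, n = 3) in con-4c, 22.0 ± 0.976 CPM for si-2c, 0.348 ± 0.0743 CPM for con-2c, and no count in any si-4c library. With si-4c set to 3 counts over its libraries, the average fell by at least 2.42 on the log2 scale (edgeR adjusted p 5.78e-06). TFAM, which packages and transcribes mitochondrial DNA, had, in the same descending order of groups, 139 ± 5.29, 67.6 ± 9.60, 1.37 ± 0.0625 and 0.694 ± 0.302 CPM (average -1.01, SE 0.14, edgeR adjusted p 0.000423). HIST1H2BD, a histone H2B gene of the cluster on chromosome 7, had 68.1 ± 0.683, 41.7 ± 6.70, 1.58 ± 0.458 and 0.591 ± 0.0724 CPM in that order (average -1.06, SE 0.14, edgeR adjusted p 0.000209). Histone H2B genes are near-identical, and how the counting split their reads is not given in the sources used here.

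RACK1, a scaffold protein on the small ribosomal subunit, had 73.5 ± 10.3, 28.9 ± 1.42, 0.921 ± 0.139 and 0.406 ± 0.202 CPM in that order as well (average -1.26, SE 0.16, edgeR adjusted p 0.000176). ZNRD2, a small zinc ribbon protein, reached 18.6 ± 1.49 CPM in con-4c and 5.53 ± 0.377 CPM in si-2c (average -1.41, SE 0.16, edgeR adjusted p 7.61e-05). Among genes without a symbol, ENSSSCG00000046061 (average -1.73, SE 0.10, edgeR adjusted p 7.13e-08) and ENSSSCG00000028810 (average -1.23, SE 0.08, adjusted p 3.44e-07) had the smallest p-values. The latter is abundant, with 2234, 2323 and 2370.5 CPM in con-4c and 802, 982 and 946 CPM in si-2c, against 39.2 to 50.2 CPM in con-2c and 17.7 to 23.9 CPM in si-4c.

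**Figure D2:**
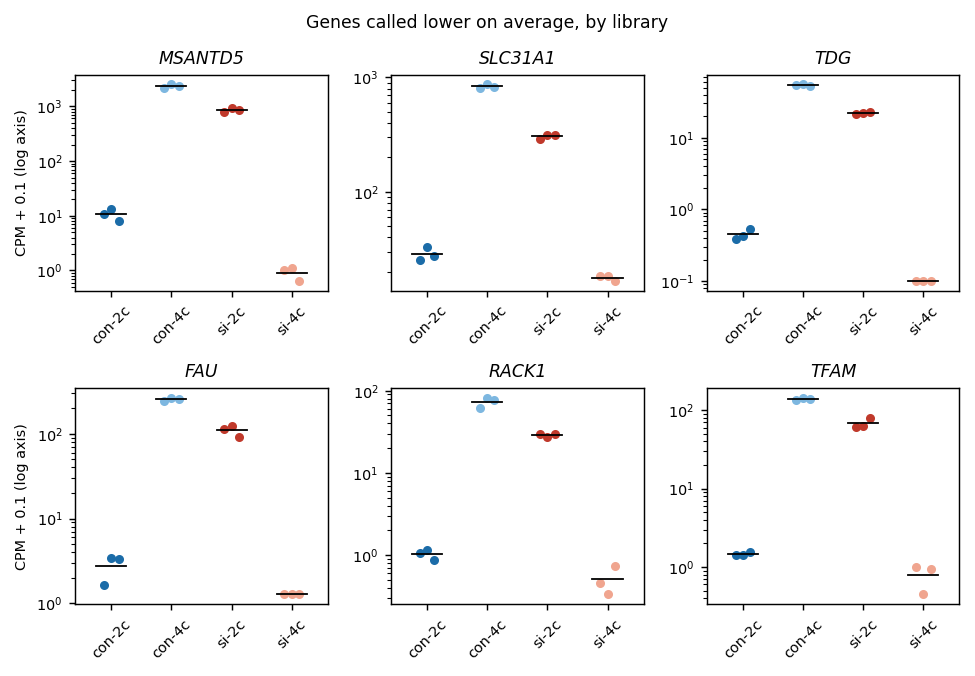
CPM + 0.1 (log axis) of 6 genes called lower on average, with 1 point per library and a line at the mean of each group of 3. In each panel the means descend from con-4c through si-2c and con-2c to si-4c, and the points of TDG in si-4c stand for libraries with no count.

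A difference present under both titles was rarer. The 6 si libraries all lay below the 6 control libraries in 63 of the genes tested (0.350%) and all above them in 49 (0.272%). Of these, 50 lower and 39 higher genes passed on adjusted p, which is 7.63% of all genes that passed as lower and 16% of those that passed as higher. Their differences were small, with a median of -0.39 for the lower and 0.34 for the higher genes, and 3 lower genes (CCNB2, C6orf52 and ENSSSCG00000002045) and 1 higher gene (ENSSSCG00000054699) were also called. The calls of ENSSSCG00000002045 and ENSSSCG00000054699 were lost in 11 and 12 of the 12 fits without 1 library, up to edgeR adjusted p 0.0928 and 0.0999, and both were below 1 CPM in every group and at 0 in 1 group. Arms that do not overlap fix the sign under both titles, so that sign is no finding. Within each title, 27 of the 50 lower genes and 15 of the 39 higher genes reached an edgeR adjusted p below 0.05 under both. If the stage is exchanged in 1 arm, so that each si group is set against the control group of the other title, 10 of the 50 and 0 of the 39 did so in both, and these comparisons use the same libraries as those within the titles. Other than CCNB2, C6orf52 and POLR2F, which the naming rule gives, the genes apart in all libraries were picked for naming after their values were seen. With library totals in place of TMM factors, 30 of the 50 lower genes and all 39 higher genes passed, and 21 and 79 genes lay apart in all.

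**Figure D3:**
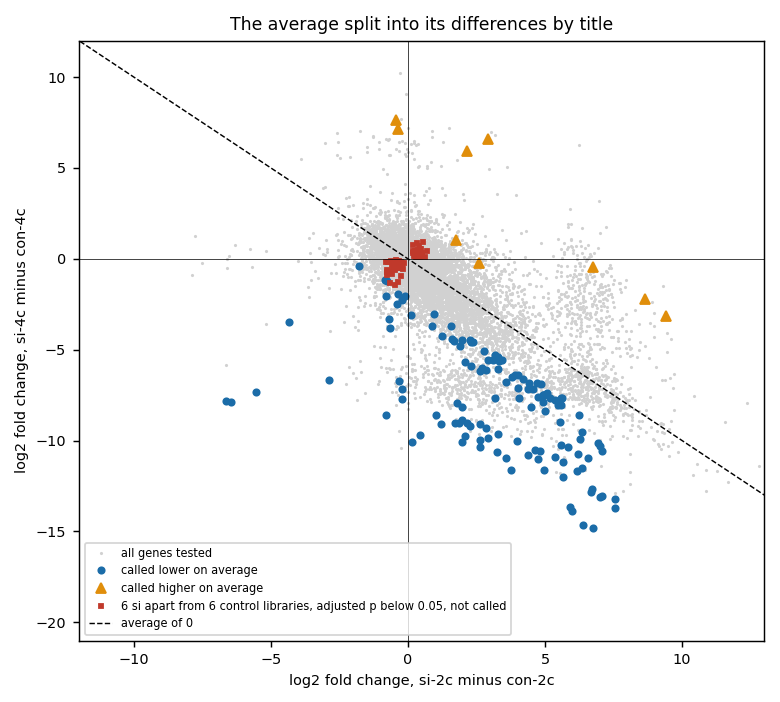
Log2 fold change of si-2c minus con-2c (horizontal axis) against si-4c minus con-4c (vertical axis) for all 17995 genes, with the dashed line where the average is 0. Most called lower genes (blue) lie below the line at lower right, higher under 1 title and lower under the other, while the genes apart in all libraries that passed without being called (red) lie at lower left and upper right.

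C6orf52 (ENSSSCG00000001040), an uncharacterised gene, was the only called gene with a symbol other than CCNB2 whose arms did not overlap at a level of at least 1 CPM. Control values were 86.9, 112 and 99.1 CPM under the title 2c and 42.1, 43.2 and 47.6 CPM under 4c, and si values were 29.6, 32.2 and 23.8 CPM under 2c and 37.6, 30.0 and 32.2 CPM under 4c. Control libraries differed between titles and si libraries were alike. The average log2 fold change was -1.11 (SE 0.09, edgeR adjusted p 1.31e-06), with -1.80 under the title 2c (SE 0.13, adjusted p 1.34e-08) and -0.41 under 4c (SE 0.12, adjusted p 0.0151), and the difference between the titles was also called (1.39, edgeR adjusted p 5.54e-06).

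Nuclear genes of the mitochondrial respiratory chain were prominent among the lower genes. ATP5MK, a small subunit of the ATP synthase, had 62.0, 71.4 and 78.9 CPM as lowest, median and highest control values and 37.2, 41.8 and 48.6 CPM in the si arm. Its average of -0.75 (SE 0.06, edgeR adjusted p 1.31e-06) was -0.75 under either title. ATP5PF, which couples the catalytic and membrane parts of the same enzyme, had 61.1, 72.1 and 86.1 CPM in control and 37.8, 44.5 and 49.3 CPM in si libraries (average -0.71, SE 0.07, edgeR adjusted p 1.92e-05). Both arms were clear of each other in these ATP synthase genes. Of complex I, NDUFA6 had 318, 380 and 472 CPM in control and 220, 278 and 290 CPM in si libraries (average -0.50, SE 0.06, edgeR adjusted p 8.49e-05), and NDUFA11 (-0.65), NDUFB2 (-0.45) and NDUFA4 (-0.26) were apart in all libraries too. Of complex IV, COX6C (-0.33, edgeR adjusted p 0.00275) and COX5B (-0.26, adjusted p 0.0234) were lower. Within the titles NDUFA6 passed under 2c (-0.81, edgeR adjusted p 1.41e-06) but not under 4c (-0.19, adjusted p 0.084), and so did COX5B (-0.44, adjusted p 0.00117, and -0.08, adjusted p 0.54). COX5B and NDUFA4 did not pass with library totals (edgeR adjusted p 0.092 and 0.0671), and they did not pass in 4 and 2 of the 12 fits that left out 1 library, up to adjusted p 0.0715 and 0.051.

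A list of nuclear-encoded subunits of oxidative phosphorylation, written after these genes had been seen and so no independent evidence, held 66 tested genes. Of these, 22 passed as lower and 1, the succinate dehydrogenase subunit SDHD (0.40, edgeR adjusted p 0.0106), as higher, which is 33.3% lower against 3.64% of all genes. The count of 22 fell to 14 without si-4c replicate 2, was 16 to 21 without any other single library, and was 12 lower and 3 higher with library totals. None was called, 9 were apart in all libraries, and the median was -0.21 against -0.01 over all genes, with list medians of -0.39 under 2c and 0.13 under 4c. Of the 22, 6 passed as lower under both titles and 6 had opposite directions. With the stage exchanged in 1 arm, 4 of the 22 passed as lower in both comparisons. SDHB, the partner of SDHD in the same complex, had -0.25 (edgeR adjusted p 0.0181), with -1.02 under 2c and 0.52 under 4c, and did not pass in 4 of the 12 fits without 1 library, up to adjusted p 0.0608.

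POLR2F, a subunit shared by the nuclear RNA polymerases (chromosome 5, 9905359 to 9917721), had 58.6, 73.5 and 82.9 CPM as lowest, median and highest control values and 32.9, 42.9 and 44.7 CPM in si libraries. The arms did not overlap, and the average was -0.83 (SE 0.07, edgeR adjusted p 3.84e-06), with -0.77 under 2c and -0.89 under 4c. Of 28 RNA polymerase subunits tested, 6 passed as lower and none as higher (21.4% against 3.64% of all genes as lower), and 22 of 28 lay below 0 with a median of -0.21. With library totals 4 passed as lower and 1 as higher, and the list medians were 0.10 under 2c and -0.51 under 4c. The others were POLR2K (-0.62, edgeR adjusted p 5.55e-05), POLR1C (-0.80, adjusted p 0.00617), POLR2B (-0.50, adjusted p 0.00378), POLR2D (-0.32, adjusted p 0.0331) and POLR2E (-0.23, adjusted p 0.0207). Only POLR2F among them was apart in all libraries. POLR2K, POLR1C and POLR2D passed as lower under the title 4c but not under 2c, and POLR2B and POLR2E passed in opposite directions under the titles. POLR2D and POLR2E each did not pass in 8 of the 12 fits that left out 1 library, up to edgeR adjusted p 0.104 and 0.0724.

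Cytosolic ribosomal proteins were the list with the most members that moved. Of 63 tested, 39 passed as lower and none as higher (61.9% against 3.64% of all genes), 5 were called lower, 61 had an average below 0, and the median was -0.59. The list medians were 0.72 under 2c and -1.87 under 4c, so most of the list was higher in si libraries under 1 title. With library totals 30 passed as lower and 1 as higher. Ribosomal protein genes have many near-identical processed copies, so their counts are uncertain. RPL10A of the large subunit had 49.9, 45.4 and 47.8 CPM in con-4c, 30.9, 28.4 and 26.6 CPM in si-2c, 14.8, 14.5 and 17.3 CPM in con-2c and 4.98, 2.83 and 3.40 CPM in si-4c (average -1.39, SE 0.11, edgeR adjusted p 1.31e-06). Called members also included FAU, which encodes RPS30 fused to a ubiquitin-like protein (-1.20, edgeR adjusted p 8.49e-05), RPS9 (-1.14, adjusted p 0.000133) and RPLP2 of the stalk (-1.20, adjusted p 0.00414, and 0.139 with limma voom). These 4 passed as higher under the title 2c and as lower under 4c.

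Within the 39 lower ribosomal protein genes, 24 passed in opposite directions under the titles and 3 passed as lower under both. RPL36, RPL15 and RPL37 were those 3. With the stage exchanged in 1 arm, 5 of the 39 passed as lower in both comparisons. RPL36 had 15.6, 21.8 and 28.1 CPM as lowest, median and highest control values and 10.4, 11.6 and 14.7 CPM in si libraries (average -0.81, SE 0.09, edgeR adjusted p 4.76e-05), and RPL15 had 86.3, 104 and 114 CPM against 73.5, 78.9 and 85.4 CPM (average -0.37, SE 0.06, adjusted p 0.00155). The arms touched in neither. RPL37 had an average of -0.69 (SE 0.07, edgeR adjusted p 2.27e-05), but its libraries overlapped, the lowest control value being 52.9 CPM and the highest si value 53.5 CPM.

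Some genes apart in all libraries encode proteins of RNA processing, which were picked after their values were seen. LSM7, a subunit of the LSm rings that bind U6 RNA and the 3′ ends of decaying mRNA, had 596, 615 and 734 CPM in control and 422, 468 and 548 CPM in si libraries (average -0.40, SE 0.07, edgeR adjusted p 0.00201). The Sm proteins SNRPG (-0.34, edgeR adjusted p 0.00228) and SNRPD2 (-0.36, adjusted p 0.00278), the H/ACA particle protein NOP10 (-0.34, adjusted p 0.00151), the splicing factor PRPF8 (-0.38, adjusted p 0.00731) and the RNA-binding protein HNRNPA1 (-0.24, adjusted p 0.00992) were lower as well. Within the titles, HNRNPA1 passed under 2c but not under 4c (edgeR adjusted p 0.147). PRPF8 and SNRPG passed under 4c but not under 2c (edgeR adjusted p 0.234 and 0.0734). LSM11, which belongs to the U7 particle that trims histone mRNA, was higher (0.34, edgeR adjusted p 0.00498). In a list of Sm and LSm proteins, also written after these values were seen, 5 of 15 tested members passed as lower and 1 as higher (33.3% and 6.67%, against 3.64% and 1.36% of all genes), and the median of -0.04, between list medians of -0.28 under 2c and 0.23 under 4c, turned to 0.03 with library totals.

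Among the other lower genes apart in all libraries were TMEM59, a membrane protein of the Golgi and endosomes (-0.69, edgeR adjusted p 0.000166), the calcium-binding protein S100A11 (-0.44, adjusted p 0.000384), the coenzyme Q protein COQ10B (-0.47, adjusted p 0.00524), the fatty acid carrier FABP3 (-0.31, adjusted p 0.0177), the MYC antagonist MXD1 (-0.28, adjusted p 0.00302), and the replication proteins POLE3 (-0.46, adjusted p 0.00471) and MCM3 (-0.30, adjusted p 0.0177). Their averages correspond to between 61.9% and 82.6% of the control level. S100A11, MXD1 and MCM3 passed under 2c but not under 4c (edgeR adjusted p 0.171, 0.134 and 0.135). MXD1, MCM3 and HNRNPA1 did not pass with library totals (edgeR adjusted p 0.059, 0.113 and 0.0716). FABP3 and MCM3 did not pass in 4 and 3 of the 12 fits without 1 library, up to edgeR adjusted p 0.0584 and 0.0612.

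The genes apart in all libraries with higher levels in the si arm had mixed functions. ATXN2, an RNA-binding protein of stress granules, had 77.1, 84.5 and 117 CPM as lowest, median and highest control values and 126, 135 and 154 CPM in si libraries (average 0.58, SE 0.07, edgeR adjusted p 0.00015), a rise to 149% of control. HILPDA, a lipid droplet protein that inhibits the lipase ATGL, had 60.2, 69.5 and 87.5 CPM in control and 89.4, 95.7 and 114 CPM in si libraries (average 0.46, SE 0.06, edgeR adjusted p 0.000269). The arms of HILPDA were close, and the difference passed under 4c (0.74, edgeR adjusted p 4.01e-06) but not under 2c (0.18, adjusted p 0.138). WIF1, a secreted inhibitor of WNT ligands, had 87.0, 91.5 and 106 CPM against 110, 119 and 128 CPM (average 0.33, SE 0.05, edgeR adjusted p 0.00178), and its difference was 0.32 under 2c and 0.33 under 4c. MED28 of the Mediator complex (0.35, edgeR adjusted p 0.00279), the chemokine CCL22 (0.35, adjusted p 0.00299), the cone phosphodiesterase PDE6C (0.32, adjusted p 0.00372) and RRAGC, a RAG GTPase that signals amino acids to mTORC1 (0.38, adjusted p 0.00463), followed. SPTLC2, a subunit of the enzyme that starts sphingolipid synthesis, was also among them (0.55, edgeR adjusted p 0.0205), and did not pass in 3 of the 12 fits without 1 library, up to an adjusted p of 0.0598. CCL22 and SPTLC2 passed under 2c but not under 4c (edgeR adjusted p 0.129 and 0.0916), and PDE6C passed under 4c but not under 2c (adjusted p 0.0835).

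**Figure D4:**
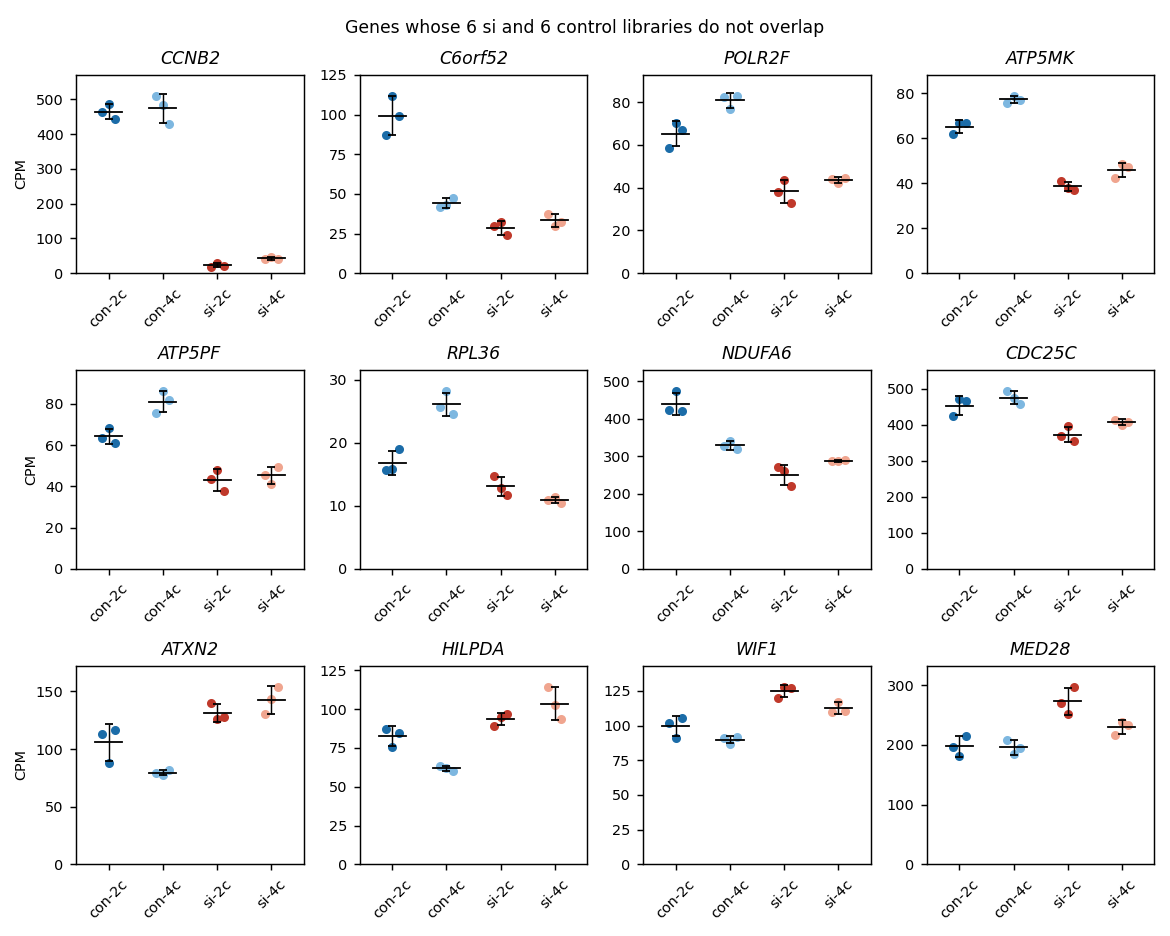
CPM (linear axis from 0) of 12 genes whose 6 si and 6 control libraries do not overlap, with 1 point per library, a line at the mean and bars of 1 SD for each group of 3. The si groups lie below the control groups for the first 8 genes and above them for ATXN2, HILPDA, WIF1 and MED28, with CCNB2 the largest difference and CDC25C one of the smallest.

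The 9 called higher genes were scarce. Of these, 7 had a group with no count, 4 were below 1 CPM in every group, and only ENSSSCG00000061091 had a group mean of at least 5 CPM, so none with a symbol met the level set for naming. The 5 with a symbol, named here because they are few, were the transcription factors NKX2-1 and NEUROD1, the amine oxidase AOC2, the zinc finger gene ZNF414 and the proton-gated channel ASIC3. NKX2-1, at 0 in con-2c, had 1.15, 0.961 and 2.31 CPM in con-4c. Its si libraries had 1.95, 1.47 and 0.901 CPM under the title 2c and 0.33, 0.289 and 0.329 CPM under 4c, so the arms overlapped. With con-2c at 3 counts over the group, NKX2-1 was higher by at least 1.65 on the log2 scale (edgeR adjusted p 0.0088). It alone of the 9 kept its call in all 12 fits without 1 library, but it did not pass with limma voom. The log2 ratio of the arithmetic means of its arms was 0.25, and of the 9 genes 3 kept a difference of at least 1 by that measure, with a median of 0.85. Of the genes without a symbol, ENSSSCG00000062471 had 0.329, 0.443 and 0.594 CPM as lowest, median and highest control values and 0.54, 1.25 and 1.9 CPM in si libraries (average 1.40, SE 0.33, edgeR adjusted p 0.0215). This call was lost without con-4c replicate 1, con-4c replicate 2, si-2c replicate 1, si-2c replicate 2 or si-4c replicate 2 (edgeR adjusted p 0.0509 to 0.0642). ENSSSCG00000058993 was at 0 in con-2c and was higher by at least 1.59 with that group at 3 counts (edgeR adjusted p 0.0336). Its call was lost in 11 of the 12 fits that left out 1 library, up to an edgeR adjusted p of 0.102 without si-4c replicate 2.

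Of the mitotic cyclins, CDK1 and their regulators, CCNB2 was the only called member of 24 tested, and with it 4 passed as lower and 1 as higher (16.7% and 4.17%, against 3.64% and 1.36% of all genes), and 2 as lower and 1 as higher with library totals. CDC25C, the phosphatase that activates CDK1 with cyclin B, had 424, 468 and 493 CPM as lowest, median and highest control values and 354, 398 and 415 CPM in si libraries. Its arms did not overlap, and the average was -0.25 (SE 0.05, edgeR adjusted p 0.00796, and 0.0671 with library totals). CKS2, which binds CDK1 (-0.41, edgeR adjusted p 0.000947), and the APC/C inhibitor FBXO5 (-0.17, adjusted p 0.0421) were lower, and FBXO43, the APC/C inhibitor of meiotic arrest, was higher (0.23, adjusted p 0.0393). Both CKS2 and FBXO5 passed in opposite directions under the titles. FBXO5 and FBXO43 did not pass in 10 and 8 of the 12 fits without 1 library, up to edgeR adjusted p 0.122 and 0.113. CCNB1, the other main B-type cyclin, had group means of 2143 CPM in con-2c and 1104 CPM in si-2c, 1295 CPM in con-4c and 2140.2 CPM in si-4c, and an average of -0.12 (SE 0.08, edgeR adjusted p 0.484). CDK1 had -0.14 (SE 0.09, edgeR adjusted p 0.506), and the list had a median of -0.01.

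In the lists of the checkpoint and of the kinetochore 6.25% and 3.77% of members passed as lower, against 3.64% of all genes. Of 32 subunits and regulators of the anaphase-promoting complex and the spindle checkpoint, TRIP13, which disassembles the checkpoint complex (-0.34, edgeR adjusted p 0.0230), and BIRC5, or survivin, of the chromosomal passenger complex (-0.36, adjusted p 0.0295), passed as lower. Of 53 kinetochore, cohesin and condensin genes, NCAPG2 of condensin II (-0.30, edgeR adjusted p 0.0317) and MIS12 of the kinetochore (-0.23, adjusted p 0.0425) did. None was called, none was apart in all libraries, and each of these 4 genes did not pass with library totals (edgeR adjusted p 0.0993 to 0.176). TRIP13, BIRC5, NCAPG2 and MIS12 did not pass in 6, 6, 8 and 11 of the 12 fits without 1 library, up to edgeR adjusted p 0.124 for MIS12 without si-4c replicate 3. The list medians were -0.10 and 0.00. Of 66 actin cytoskeleton genes, 3 passed as lower and 1 as higher (4.55% and 1.52%). TPM3, a tropomyosin, was called lower (-1.04, SE 0.21, edgeR adjusted p 0.00859, and 0.141 with limma voom) with 75.5 ± 3.09 CPM in con-4c, 29.8 ± 2.37 in si-2c, 0.617 ± 0.408 in con-2c and 0.366 ± 0.138 in si-4c. TMSB10 (-0.60, edgeR adjusted p 0.000622) and RHOA (-0.27, adjusted p 0.0193, 0.102 with library totals, and not past the threshold in 4 of the 12 fits without 1 library) passed as lower, and SCIN (0.38, adjusted p 0.0142) as higher.

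Of 12 tested markers of genome activation, 4 passed as lower and none as higher (33.3% lower against 3.64% of all genes), 8 lay below 0 and 4 above, and none was called. EIF1AX, a translation initiation factor, had 29.0, 102 and 182 CPM as lowest, median and highest control values and 38.6, 63.2 and 93.9 CPM in si libraries, with an average of -0.34 (SE 0.06, edgeR adjusted p 0.00356). DPPA2, a chromatin factor of early embryos, had 36.2, 98.3 and 184 CPM against 35, 65.4 and 93.2 CPM, with an average of -0.43 (SE 0.08, edgeR adjusted p 0.00497). Both overlapped between the arms. KLF4 (-0.42, edgeR adjusted p 0.0416) and NFYA (-0.32, adjusted p 0.0365) passed too, and the median of the 12 was -0.33, with list medians of 1.54 under 2c and -2.22 under 4c. KLF4 and NFYA did not pass with library totals (edgeR adjusted p 0.133 and 0.148) and did not pass in 9 and 10 of the 12 fits without 1 library, up to adjusted p 0.119 and 0.109. EIF1AX and DPPA2 stand for markers that the study itself named in these samples, so they are not independent evidence of a direction.

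BTG4, an adaptor of the CCR4-NOT deadenylase that the study took up from these libraries, had 7150.1, 11711 and 20183 CPM as lowest, median and highest control values and 6982, 13830.4 and 20921 CPM in si libraries, and its average was 0.06 (SE 0.07, edgeR adjusted p 0.768). Its difference under 4c less that under 2c was 2.59 (edgeR adjusted p 4.57e-10), so opposite differences under the titles cancel in this average. The study compared BTG4 stage by stage, which the average does not address. Of 36 oocyte transcripts tested, 3 passed as lower (ZP4 of the zona pellucida, NLRP13 and ACCSL) and 2 as higher (8.33% and 5.56%, against 3.64% and 1.36% of all genes). The median of 0.05 stands between list medians of -0.29 under 2c and 0.33 under 4c. BMP15, a growth factor of the oocyte, was one of the higher ones, with 835, 937 and 1010 CPM in control and 1004, 1121 and 1303 CPM in si libraries (average 0.28, SE 0.05, edgeR adjusted p 0.00356), and the other was RNF114 (0.21, adjusted p 0.0481). ZP4, NLRP13 and ACCSL did not pass with library totals (edgeR adjusted p 0.088, 0.208 and 0.0517), and ZP4, NLRP13 and RNF114 did not pass in 10, 9 and 11 of the 12 fits without 1 library, up to adjusted p 0.135 for RNF114 without si-4c replicate 2. Of 66 mRNA decay factors, 4 passed as lower and 1 as higher (6.06% and 1.52%). The exosome subunits EXOSC10 (-0.73, edgeR adjusted p 0.000199) and EXOSC1 (-0.39, adjusted p 0.000947), the CCR4-NOT subunit CNOT9 (-0.59, adjusted p 0.00698) and LSM7 passed as lower and the translational repressor PUM2 as higher (0.26, adjusted p 0.0297, and not past the threshold in 7 of the 12 fits without 1 library, up to 0.0911). EXOSC10, EXOSC1 and CNOT9 passed in opposite directions under the titles.

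Lists that bear on a reaction to injected RNA or to stress are set here beside the 3.64% and 1.36% of all genes that passed as lower and higher. Of 26 tested interferon and double-stranded RNA response genes, HERC5, an ISG15 ligase, passed as higher (0.65, SE 0.16, edgeR adjusted p 0.0283, and not past the threshold in 8 of the 12 fits without 1 library, up to 0.0822) and none as lower (3.85% higher), and the RNA sensor DDX58 had -0.22 (adjusted p 0.0570). Of 14 genes of the RNA interference machinery, TNRC6B, a partner of Argonaute, passed as lower (-0.22, SE 0.05, edgeR adjusted p 0.0211, 0.146 with library totals, and not past the threshold in 5 of the 12 fits without 1 library), which is 7.14% of the list, and the exporter XPO5 had -0.27 (adjusted p 0.0691). Of 24 p53 response genes, ZMAT3 passed as higher (4.17% of the list, 0.48, SE 0.10, edgeR adjusted p 0.00893), with -0.52 under 2c and 1.47 under 4c. Of 32 heat shock and unfolded protein response genes, 4 passed as lower and 2 as higher (12.5% and 6.25%). HSPA8 (-0.37, edgeR adjusted p 0.00796), DNAJB1 (-0.25, adjusted p 0.0101, and 0.137 with library totals), DNAJB9 (-0.32, adjusted p 0.00644) and DDIT3 (-0.41, adjusted p 0.0106) passed as lower, and asparagine synthetase ASNS (0.38, adjusted p 0.00111) and the endoplasmic reticulum chaperone HSP90B1 (0.18, adjusted p 0.0364) as higher. HSP90B1 did not pass in 9 of the 12 fits without 1 library, up to an edgeR adjusted p of 0.0983. Its arms were apart in all libraries, whereas those of ASNS overlapped, with a highest control value of 117.7 CPM and a lowest si value of 117.3 CPM. The medians of these lists were -0.05, 0.00, -0.06 and -0.13.

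**Figure D5:**
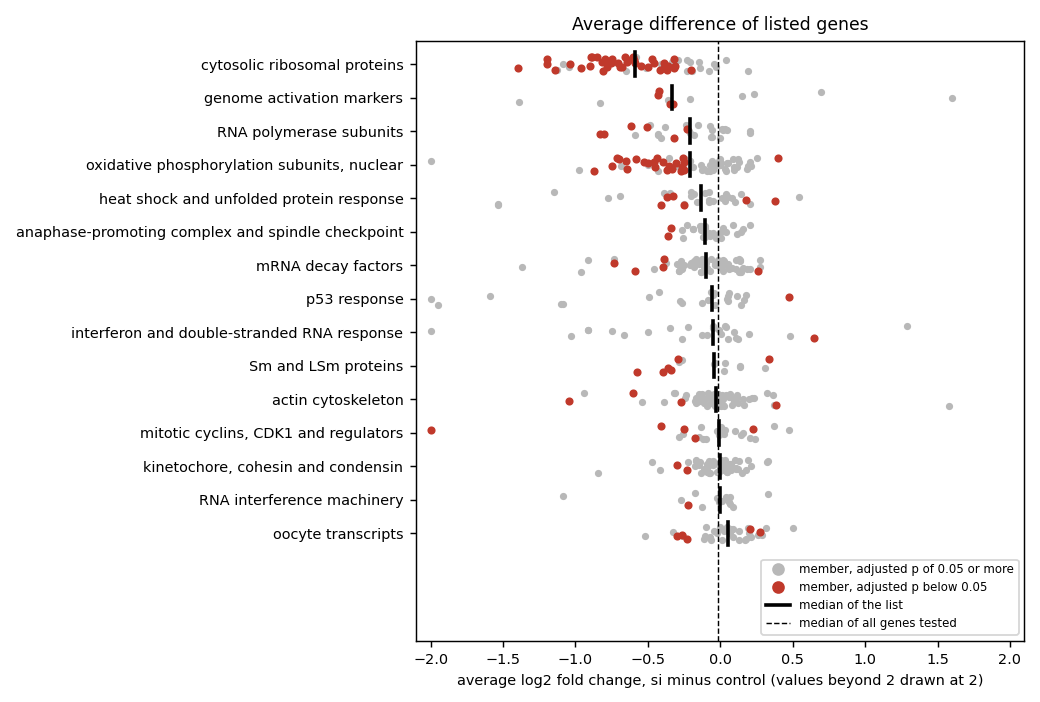
Average log2 fold change of si minus control (horizontal axis) for the tested members of each gene list with at least 12 of them, members past adjusted p in red and the list median as a bar. The bar of the cytosolic ribosomal proteins at -0.59 is the farthest from the dashed median of all genes at -0.01, and the list of oocyte transcripts is at 0.05.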

How the data were processed

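The values were counts per Ensembl gene of 12 SMART-seq libraries, deposited by the authors as whole numbers without normalization. The submitters' processing notes name cutadapt 1.9, HISAT2 2.2.1, StringTie 2.1.6, DESeq2 and edgeR and the build Sscrofa11.1, without roles. Which annotation release was counted, whether strand was used and how reads matching more than 1 gene were handled are not given in the sources used here. Reads were amplified and carried no molecular identifiers, so library totals (27785233 to 39510908 counts) do not by themselves set the precision. Coordinates come from a RefSeq gene table of Sscrofa11.1, and 14637 of the 29329 identifiers matched the gene name table. The siRNA sequences come from the study's supplementary list.

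The quasi-likelihood F test of edgeR 4.0.16 (R 4.3.3) was applied to the counts, after filterByExpr (17995 genes) and TMM scaling (factors 0.852 to 1.21), in 1 model with a mean for each group. Benjamini-Hochberg adjustment covered all genes tested, and the fold and p thresholds were those of the study. The common dispersion was 0.0745, or 27.3% as a coefficient of variation. To obtain standard errors, log2 fold changes were divided by the root of F. CPM were computed here with the TMM factors. A chi-square of 7.27 to 38.7 per degree of freedom between replicates exceeded sampling noise, so no library was treated as a copy. The scripts were tested on simulated data.

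Named genes were the 12 called lower and at most 12 called higher genes of smallest p, CCNB2 apart, that carry a symbol and reach 5 CPM in 1 group, any called gene with a symbol whose arms did not overlap at a mean of at least 1 CPM, the called members or the 2 members with the smallest p of each list, the genes the study names, and up to 2 higher and 2 lower genes without a symbol. Some of these genes are not reported here. Other genes past adjusted p were named after their values were seen. The members and lists were chosen with earlier results of these data known, and the lists of oxidative phosphorylation subunits and of Sm and LSm proteins were written after these values were seen. A group with no count was set to 3 counts over the group where a bound is given. Alternatives were library totals, RLE size factors, no filter or a filter of 10 CPM, DESeq2 1.42.0, limma voom (limma 3.58.1), a replicate block, 2 models with fewer terms, other thresholds, the arithmetic means of the arms and leaving out each library, and a prior count of 5 that was chosen after seeing the data. Same-numbered libraries of different groups did not deviate together (mean correlation -0.00168 over 18 pairs, none over 0.1), so the numbers were not treated as pairs.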

Additional observations from a re-analysis of the deposited data

Results flagged for a closer look

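The difference between si and control libraries under the title 4c less that under 2c was tested as an interaction term in the same edgeR model, and 118 of the 201 genes considered for naming had an adjusted p below 0.05 for it. Of the genes that the naming rule gives, those reported here that were past a log2 difference of 1 follow, with edgeR adjusted p between 8.89e-18 and 0.0311. The difference was -17.83 for MSANTD5, -8.98 for SLC31A1, -4.56 for RPL10A, -19.82 for TDG, -6.18 for ZNRD2, -13.09 for FAU, -6.89 for RPS9, -12.46 for RACK1, -11.55 for HIST1H2BD and -13.26 for TFAM. Fitted values of TDG, ENSSSCG00000058993, KRT8 and PTX3, which have a group without counts, depend on the prior count and are no bounds.

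Among genes without a symbol it was -14.55 for ENSSSCG00000046061, -11.26 for ENSSSCG00000028810 and -12.55 for ENSSSCG00000058993. EIF1AX had -3.55 and DPPA2 -3.36. Among members of the gene lists it was -13.27 for TPM3, -10.42 for RPLP2, -7.96 for EXOSC10, -4.29 for EXOSC1, -3.25 for NCAPG2, -1.50 for POLR2K, -1.34 for XPO5, -1.08 for BIRC5 and -1.003 for DNAJB9. It was 2.07 for ACCSL and 1.98 for ZMAT3. Of list members that did not pass on average, it was -10.94 for HSPA1L, -9.30 for KRT8, -7.89 for PTX3, -4.95 for FAS, -2.74 for PTPRC and 1.93 for SPACA3. The sign was the other way for BTG4, with 2.59, and for C6orf52, with 1.39, whose si libraries were lower under both titles. These differences change sign if the titles are exchanged in all libraries. If the stage is exchanged in only 1 arm, other groups are set against each other and these values do not hold. The term was not tested for that case.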

How the results depend on the processing

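CCNB2 was lower in every fit (-4.02 to -3.84). Against 9 genes called higher and 126 lower (244 and 655 past adjusted p alone, which are also the counts with no minimum fold), other settings gave these numbers of called genes: 1 and 23 with adjusted p below 0.01 and a log2 fold change of at least 2, 35 higher with no filter, 0 and 81 with the 10 CPM filter, 45 and 221 with DESeq2, 70 lower with limma voom, and 5 higher with a prior count of 5 (chosen after seeing the data). With the replicate block, 4 were higher and 102 lower, and 164 and 540 passed adjusted p. Numbers do not pair these libraries, and 3 of 12 libraries correlated best with one of their own number. With 2 arms and no term for the title, 0 were called higher and 1 lower (0 and 3 past adjusted p), and with arm plus title 0 and 1 (0 and 5), as differences between the groups then count as residual spread. Past adjusted p were 440 higher and 405 lower with library totals, 371 higher with the 10 CPM filter, and 390 and 987 with DESeq2. Arms without overlap numbered 79 above and 21 below with library totals, and 32 above with the 10 CPM filter.

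Leaving out 1 library gave 3 (without si-2c replicate 1 or 3) to 18 (without con-2c replicate 2) called higher and 93 to 150 called lower, 111 (without si-4c replicate 2) to 250 past adjusted p as higher and 444 to 636 as lower, and 60 to 105 arms without overlap above and 71 to 96 below. Of the 50 lower and 39 higher genes apart in all libraries, 34 and 22 still passed without si-4c replicate 2. Their sign was fixed by how they were picked. CD3E turned from -0.22 to 0.10 without con-4c replicate 2 and reached -0.57 without si-2c replicate 2, never past the threshold. NKX2-1 did not pass with limma voom (adjusted p 0.108). Low counts limit the called higher genes.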
